A study of Mus musculus with 6 samples.

Results

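Transcripts of 10 genes that move calcium in and out of the sarcoplasmic reticulum were compared between hind leg muscle of control (Con) and exercise (EX) mice. The genes were chosen by symbol: the pumps Atp2a1 and Atp2a2, their inhibitors Pln and Sln, the store proteins Casq1, Casq2 and Srl, the cytosolic buffer Pvalb, the release channel Ryr1 and the voltage sensor Cacna1s. They are 10 of the 16759 genes in the deposited table and 10 of the 10883 genes that were tested. Each symbol matched 1 row.

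The mice were male C57BL/6J, aged 8 weeks at the start, and no transgene or deletion is named for them. Each group held 3 libraries. They are read here as 1 mouse each, which neither the labels nor the methods state. EX mice ran on a treadmill for 60 min per day on 5 days a week over 6 weeks, covering 22 km each, and tissue was taken 24 h after their last run. Con mice had no treadmill training. A small piece of hind leg muscle, freed of fat between the muscles, was taken after perfusion. Neither the labels nor the methods say which muscle of the leg it was, and muscles of the leg differ in their share of slow fibres.

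In skeletal muscle, a nerve impulse activates a voltage sensor in the transverse tubule, which opens the ryanodine receptor in the facing sarcoplasmic reticulum. Stored calcium floods the fibre and starts contraction. SERCA pumps then return calcium to the store, where calsequestrin holds it, and parvalbumin binds calcium in the cytosol of fast fibres until the pumps have caught up. Pump and calsequestrin each have a form typical of fast fibres (Atp2a1, Casq1) and a form typical of slow fibres and heart (Atp2a2, Casq2), while the small membrane proteins phospholamban and sarcolipin slow the pumps.

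Counts on genes totalled 13845362 to 16240431 per library, and the 20 most abundant genes took 30.1% to 32.5% of them. Levels are given as CPM, counts divided by the library total after TMM scaling. They were compared with edgeR (quasi-likelihood test), with p-values adjusted by Benjamini-Hochberg over all 10883 genes and a threshold of 0.05. Levels of different genes are set against each other as TPM, which also divides by transcript length. The labels name the tissue as muscle, and the 10 fast fibre markers summed to 152161 to 155090 TPM in Con libraries and 158301 to 161324 TPM in EX libraries. The p-values measure the spread between libraries of a group, which is the spread between mice only if each library came from 1 mouse. No batch is named. The edgeR fit put the common coefficient of variation between libraries of a group at 0.0328.

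Of the 10 genes, 9 passed the threshold, 6 higher and 3 lower in EX muscle. Over all genes tested, 17.9% passed, 9.11% higher and 8.8% lower. The ranges of the groups did not overlap for 8 of the 10 genes, against 33.7% of all genes tested. Pln entered the test through its higher Con values. Of the other 9, whose mean FPKM was over the filter in each group, 6 were higher and 2 lower and 7 did not overlap, against 17.7% past the threshold and 33.3% without overlap among all genes of that kind. Of the 10, Atp2a2 and Sln passed the threshold with a log2 fold change of at least 1 either way, as did 0.524% of all genes tested. The change was large for the slow pump Atp2a2, at 2.19-fold, and small for the abundant genes, whose folds lay between 0.888 (Ryr1) and 1.27 (Pvalb). When FPKM or TPM values were compared with limma instead, 3 rose and 3 fell (over all genes, 3.78% rose and 9.53% fell on log2(FPKM + 0.1), and 3.12% and 15.5% on TPM), since Atp2a1, Casq2 and Sln no longer passed.

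**Figure D1:**
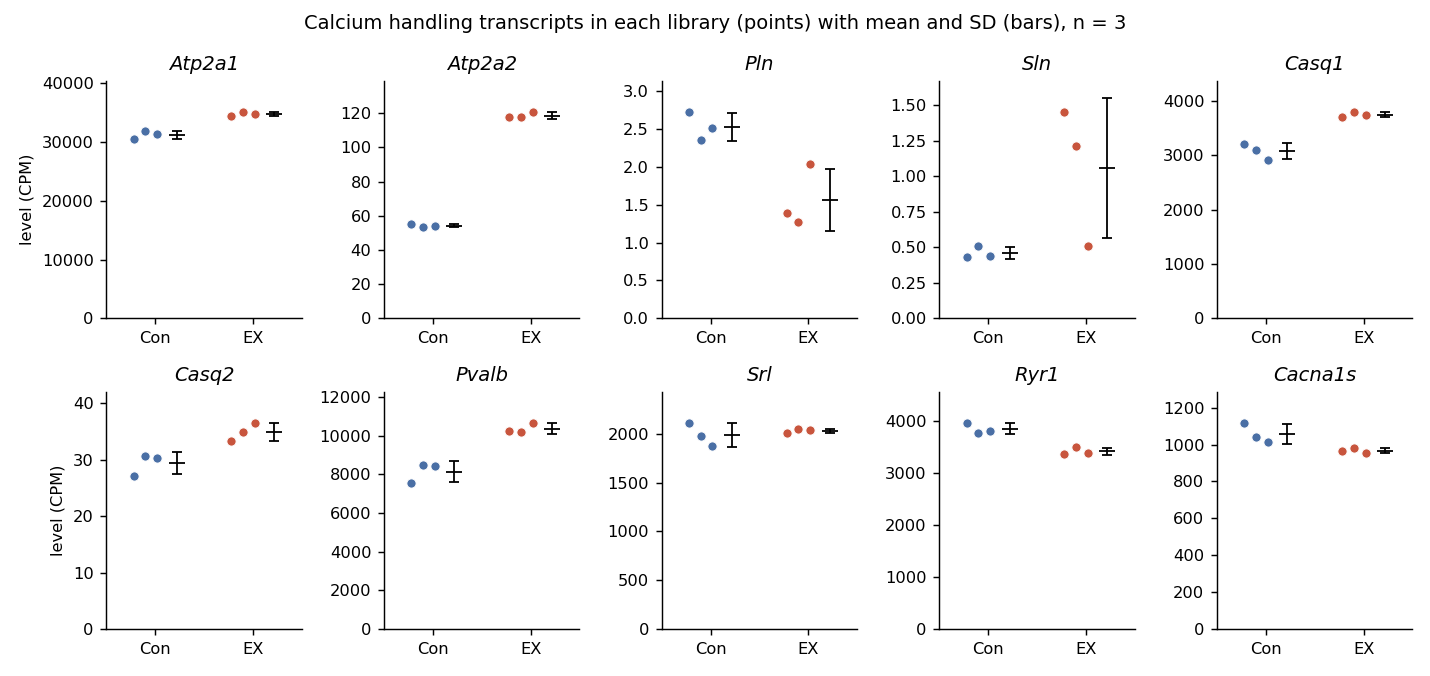
Level of each of the 10 genes (CPM, linear axes starting at 0) in the 3 Con libraries (blue points) and 3 EX libraries (red points), with the mean and SD as black bars. The 3 Atp2a2 points of the EX group sit between 117.5 and 120.8 CPM, all above the Con points, while 1 of the 3 Sln points of the EX group lies within the Con range.

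The levels of the 10 genes covered 4 orders of magnitude. In Con libraries, Pvalb stood at 17388 to 19952 TPM and Atp2a1 at 14398 to 15128 TPM. Casq1 followed at 2810 to 3044 TPM and Srl at 733.1 to 828.3 TPM. Ryr1 held 379.9 to 396.5 TPM and Cacna1s 262.0 to 286.5 TPM. The slow forms came far below, Atp2a2 at 19.5 to 19.9 TPM and Casq2 at 17.9 to 20.3 TPM. Sln at 3.13 to 3.75 TPM and Pln at 1.71 to 1.97 TPM were the scarcest. Neighbours in this order did not overlap, with the exception of Atp2a2 and Casq2. In EX libraries, Atp2a2 at 39.6 to 41.7 TPM lay above Casq2 at 21.0 to 22.8 TPM, and the rest of the order was as in Con libraries. The 10 genes together took 4.89% to 5.12% of the counts of a Con library and 5.40% to 5.46% of an EX library. Pvalb and Atp2a1 ranked 10th and 12th by mean TPM among the genes in the table.

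Atp2a1 (Entrez gene 11937) encodes SERCA1, the calcium pump of fast fibres. It reached 30543, 31909 and 31401 CPM in the Con libraries and 34450, 35134 and 34800 CPM in the EX libraries. All EX values lay above all Con values, by a small margin. The log2 fold change was 0.15 (SE 0.03), a 1.11-fold rise with a 95% interval of 1.07 to 1.16 (edgeR adjusted p = 3.7e-04). It held under the other scalings within edgeR, at 0.15 with median ratio size factors (adjusted p = 4.1e-04) and 0.13 with totals without the top 20 genes (adjusted p = 1.4e-03). With limma on TPM the difference was 0.061 and missed the threshold (adjusted p = 0.234), in a fit whose median over all genes was -0.091.

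Atp2a2 (Entrez gene 11938) encodes SERCA2, the pump typical of slow fibres and heart. It reached 55.2, 53.6 and 53.8 CPM in Con muscle and 117.6, 117.5 and 120.8 CPM in EX muscle. The 3 libraries of each group lay within a few percent of each other, and the groups were far apart. The mean rose from 54.2 ± 0.880 to 118.6 ± 1.86 CPM (SD, n = 3), a log2 fold change of 1.13 (SE 0.04) and a fold of 2.19 with a 95% interval of 2.05 to 2.33 (edgeR adjusted p = 4.7e-17). It was the 31st largest increase among the genes tested, and a change this large in either direction was rare, with 0.368% of the genes further from 0. It passed the threshold under each of the 14 alternative settings.

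No source used here says that the same muscle was taken from Con and EX mice, so a difference in the muscle sampled cannot be told apart from training. Since RNA came from whole tissue, more slow fibres, more Atp2a2 transcript per fibre and Atp2a2 transcript from other cells cannot be told apart. Markers of slow fibres moved in the same samples. The 10 slow fibre markers summed to 275.4 to 291.1 TPM in Con libraries and 528.4 to 564.0 TPM in EX libraries. Of the 10, 7 rose while Myoz2 and Ankrd2 fell, against 9.11% higher and 8.8% lower over all genes tested. Myh7 and Tnni1 passed the filter through their EX values. Of the other 8 markers, 5 rose and 2 fell, against 17.7% past the threshold among all genes over the filter in each group. The slow myosin heavy chain Myh7 had 13, 14 and 19 counts in Con libraries and 1577, 1737 and 1522 counts in EX libraries. The part of these fibres in the rise of Atp2a2 was not tested. Of the heart muscle list, 4 of 8 genes in the table were tested and all 4 rose, against 9.11% of all genes tested. Its summed levels were 656.0 to 728.2 TPM in Con and 2020 to 2123 TPM in EX libraries, nearly all of it Actc1. The 4 tested were Myl2 (log2 fold change 3.48), Actc1 (1.65), Tnnt2 (0.95) and Myl4 (0.86). Myl2 is also among the 10 slow fibre markers, so its rise is in both counts. The 4 under the filter were near 0 in both groups, as Nppa had 1 count in 1 EX library and none in the others, Ryr2 had 0 to 6 counts per library, Tnni3 had 0 to 5 and Myh6 had 6 to 17.

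Within each library, the 2 pumps were compared directly. Atp2a2 stood at 1.38, 1.29 and 1.31 TPM for every 1000 TPM of Atp2a1 in Con muscle and at 2.63, 2.58 and 2.68 in EX muscle. The ratio rose by 0.99 on the log2 scale, a fold of 1.99, with no overlap (two-sided exact permutation test, p = 0.1, the smallest that 3 against 3 can give). Hence Atp2a2 held 0.132% ± 0.00504 of the TPM of the 3 pump genes in Con and 0.262% ± 0.00498 in EX libraries (SD, n = 3). The pump genes summed to 14424 to 15153 TPM in Con and 15403 to 15594 TPM in EX libraries, so Atp2a1 set nearly the whole sum in each group.

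Pln (Entrez gene 18821) encodes phospholamban, which restrains SERCA2 until it is phosphorylated. It was scarce, with 38, 37 and 40 counts in Con and 22, 20 and 32 counts in EX libraries. These are 2.73, 2.35 and 2.51 CPM against 1.39, 1.27 and 2.03 CPM, with every EX value below every Con value. The log2 fold change was -0.69 (SE 0.22), a fold of 0.621 with an interval of 0.457 to 0.845 (edgeR adjusted p = 0.026). Its mean of 1.01 FPKM lay just over the filter of 1, which its Con values (1.18 to 1.35 FPKM) passed and its EX values (0.61 to 0.98 FPKM) did not. Without the filter the adjusted p was 0.027. The call was weak: it was lost with DESeq2 (adjusted p = 0.147) and when Con replicate 1 (0.060), Con replicate 3 (0.051), EX replicate 1 (0.102) or EX replicate 2 (0.122) was left out, while the value stayed negative. Against its pump, Pln stood at 9.90%, 8.79% and 9.38% of the Atp2a2 TPM in Con libraries and at 2.34%, 2.15% and 3.34% in EX libraries. This ratio fell by 1.87 on the log2 scale (exact permutation p = 0.1, the smallest possible), and all EX values lay below all Con values.

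Sln (Entrez gene 66402) encodes sarcolipin, a peptide that lets SERCA split ATP with less calcium moved. It had 6, 8 and 7 counts in Con and 23, 19 and 8 counts in EX libraries, so EX replicate 3 lay within the Con range. The levels were 0.430, 0.509 and 0.439 CPM against 1.45, 1.21 and 0.508 CPM. With 95% Poisson intervals of 14.6 to 34.5 counts in EX replicate 1 and 3.45 to 15.8 counts in EX replicate 3, counting error (which leaves out other sources of error) is wide at this depth. The log2 fold change was 1.18 (SE 0.38), a fold of 2.27 with an interval of 1.32 to 3.93 (edgeR adjusted p = 0.031). The call was lost with DESeq2 (adjusted p = 0.148), with limma, and without Con replicate 1 (0.051), Con replicate 2 (0.066), Con replicate 3 (0.075), EX replicate 1 (0.201) or EX replicate 2 (0.112), and it held without EX replicate 3 (5.9e-03). Set against the fast pump, Sln stood at 0.217, 0.248 and 0.227 per 1000 TPM of Atp2a1 in Con and at 0.664, 0.541 and 0.223 in EX libraries, and this ratio did not pass (exact permutation p = 0.3).

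Other micropeptides that bind SERCA were read beside them. Myoregulin (Mrln), an inhibitor of the pump in skeletal muscle, stood at 47.3 ± 2.20 CPM in Con and 47.8 ± 0.807 CPM in EX muscle (SD, n = 3), a log2 fold change of 0.01 (edgeR adjusted p = 0.894). Its level per length was 542.5 ± 34.7 and 506.5 ± 15.4 TPM, above that of Sln and Pln in every library, although it rests on an implied transcript length of 129 bases. Another-regulin (Arln) stood at 23.0 ± 1.27 and 22.5 ± 0.906 CPM (log2 fold change -0.04, edgeR adjusted p = 0.773). Strit1, which encodes the pump activator DWORF, had 1 count in EX replicate 2 and 0 in the other 5 libraries, where up to 3 counts, or 0.186 to 0.217 CPM, would be allowed. The remaining pump gene, Atp2a3 (SERCA3, mostly of blood and lining cells), fell from 16.7 ± 1.01 to 13.4 ± 0.351 CPM (log2 fold change -0.32, edgeR adjusted p = 6.2e-03). Atp2a3 thus moved against both muscle pumps. Of 7 endothelial markers, 5 passed lower, against 8.8% of all genes tested, and Tek and Esam did not pass. The list summed to 367.1 to 373.2 TPM in Con and 303.9 to 308.3 TPM in EX libraries. The part of endothelial cells in the fall of Atp2a3 was not tested.

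**Figure D2:**
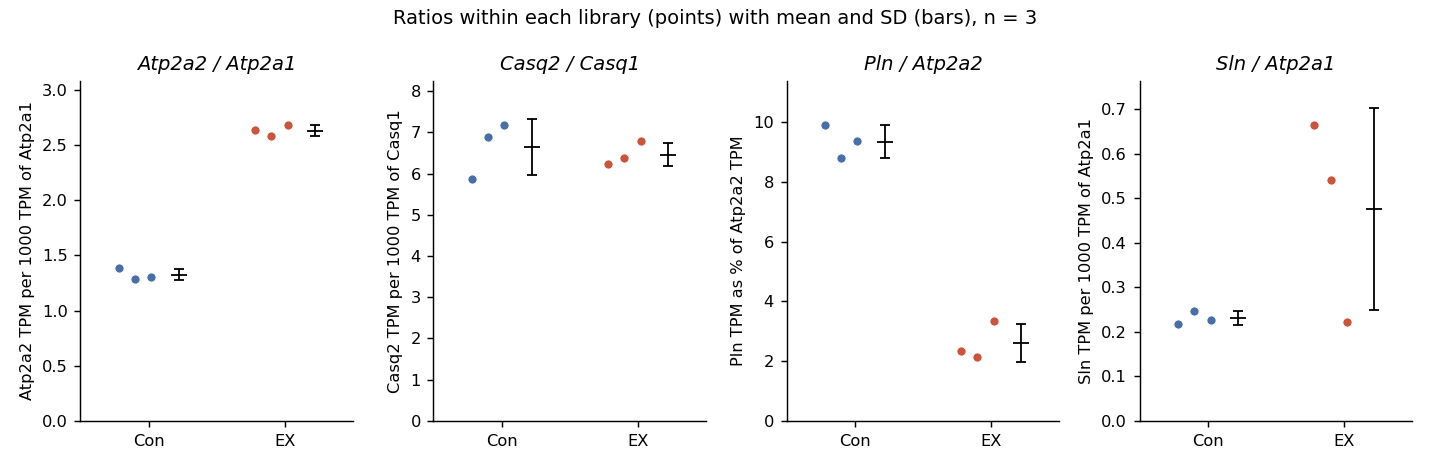
Ratios of TPM within each library for the pump forms, the calsequestrin forms and each inhibitor against a pump, with 1 point per library (blue Con, red EX), the mean and SD as black bars (n = 3) and axes starting at 0. The slow to fast pump ratio lies at 1.29 to 1.38 per 1000 in Con and 2.58 to 2.68 in EX libraries, whereas the calsequestrin ratio overlaps between the groups.

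Changes of the store proteins were smaller than that of Atp2a2. Casq1 (Entrez gene 12372) encodes the calsequestrin of fast fibres. It reached 3219, 3097 and 2922 CPM in Con and 3714, 3802 and 3749 CPM in EX libraries, without overlap. The rise was 1.22-fold with an interval of 1.16 to 1.28 (log2 fold change 0.29, SE 0.03, edgeR adjusted p = 5.3e-07), and it held under all 14 alternatives.

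Casq2 (Entrez gene 12373) encodes the form of slow fibres and heart. It reached 27.2, 30.7 and 30.2 CPM in Con and 33.3, 35.0 and 36.6 CPM in EX libraries, also without overlap. The rise was 1.19-fold with an interval of 1.09 to 1.30 (log2 fold change 0.25, SE 0.06, edgeR adjusted p = 5.6e-03), and it was lost with limma on FPKM or TPM (adjusted p of 0.082 to 0.117).

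The proportion of the 2 calsequestrin genes was compared in the same way as that of the pumps. Casq2 stood at 5.87, 6.89 and 7.17 TPM for every 1000 TPM of Casq1 in Con and at 6.23, 6.38 and 6.78 in EX muscle. The EX values lay inside the Con range (log2 difference -0.04, exact permutation p = 0.8), and leaving out each library in turn gave differences from -0.12 to 0.022. Casq2 held 0.660% ± 0.0676 of the calsequestrin TPM in Con and 0.642% ± 0.0282 in EX libraries (SD, n = 3). Between the slow forms, Atp2a2 stood at 1.11, 0.958 and 0.973 times the TPM of Casq2 in Con and at 1.95, 1.86 and 1.83 times in EX libraries. These slow-form values did not overlap between the groups.

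Srl (Entrez gene 106393) encodes sarcalumenin, a glycoprotein that binds calcium inside the store. It was the gene of the 10 that did not pass. It reached 2114, 1976 and 1876 CPM in Con and 2008, 2045 and 2036 CPM in EX libraries, and the EX values lay inside the Con range. The log2 fold change of 0.03 had an interval of -0.05 to 0.10 (edgeR adjusted p = 0.635). Its sign turned without Con replicate 3 and with limma. The median over all genes was also below 0 with limma, at -0.056 on log2(FPKM + 0.1) and -0.091 on TPM.

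Pvalb (Entrez gene 19293) encodes parvalbumin, the buffer of fast fibres. It reached 7543, 8480 and 8425 CPM in Con and 10227, 10196 and 10678 CPM in EX libraries. Con replicate 1 was the lowest of the 6, and all EX libraries lay above all Con libraries. The rise was 1.27-fold with an interval of 1.21 to 1.34 (log2 fold change 0.35, SE 0.04, edgeR adjusted p = 7.5e-08), and it held under all 14 alternatives. Against the fast pump, Pvalb stood at 120.8%, 130.2% and 133.0% of the TPM of Atp2a1 in Con and at 146.1%, 142.6% and 149.6% in EX libraries, again without overlap. In the same comparison Casq1 stood at 211.4, 194.8 and 187.3 per 1000 TPM of Atp2a1 in Con and at 216.6, 217.4 and 216.0 in EX libraries. Of 10 fast fibre markers, 6 passed higher and 2 lower, against 9.11% and 8.8% of all genes tested. The fast myosin heavy chains did not pass higher. Myh4 had a log2 fold change of 0.04 and did not pass, while Myh1 (-0.09) and Myh2 (-0.75) passed lower. The part of fast fibres in the rises of Pvalb and Casq1 was not tested.

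Ryr1 and Cacna1s fell. Ryr1 (Entrez gene 20190) encodes the ryanodine receptor, through which calcium leaves the store. It reached 3961, 3766 and 3803 CPM in Con and 3366, 3486 and 3381 CPM in EX libraries, without overlap. The fold was 0.888 with an interval of 0.848 to 0.929 (log2 fold change -0.17, SE 0.03, edgeR adjusted p = 2.7e-04), and the fall held under all 14 alternatives. The related channel genes Ryr2 (0 to 6 counts per library) and Ryr3 (28 to 42 counts) lay under the filter for testing.

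Cacna1s (Entrez gene 12292) encodes the pore and voltage sensor of the tubule channel that opens Ryr1. It reached 1119, 1041 and 1012 CPM in Con and 965.3, 979.2 and 955.8 CPM in EX libraries, without overlap. The fold was 0.915 with an interval of 0.869 to 0.963 (log2 fold change -0.13, SE 0.04, edgeR adjusted p = 0.013), and it missed the threshold without EX replicate 3 (-0.12, adjusted p = 0.085). The ratio of the pair overlapped between the groups, as Ryr1 stood at 1.38, 1.42 and 1.48 times the TPM of Cacna1s in Con and at 1.40, 1.42 and 1.42 times in EX libraries. Against the fast pump, Ryr1 stood at 27.5, 25.1 and 25.8 per 1000 TPM of Atp2a1 in Con and at 21.2, 21.5 and 21.2 in EX libraries, which did not overlap.

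**Figure D3:**
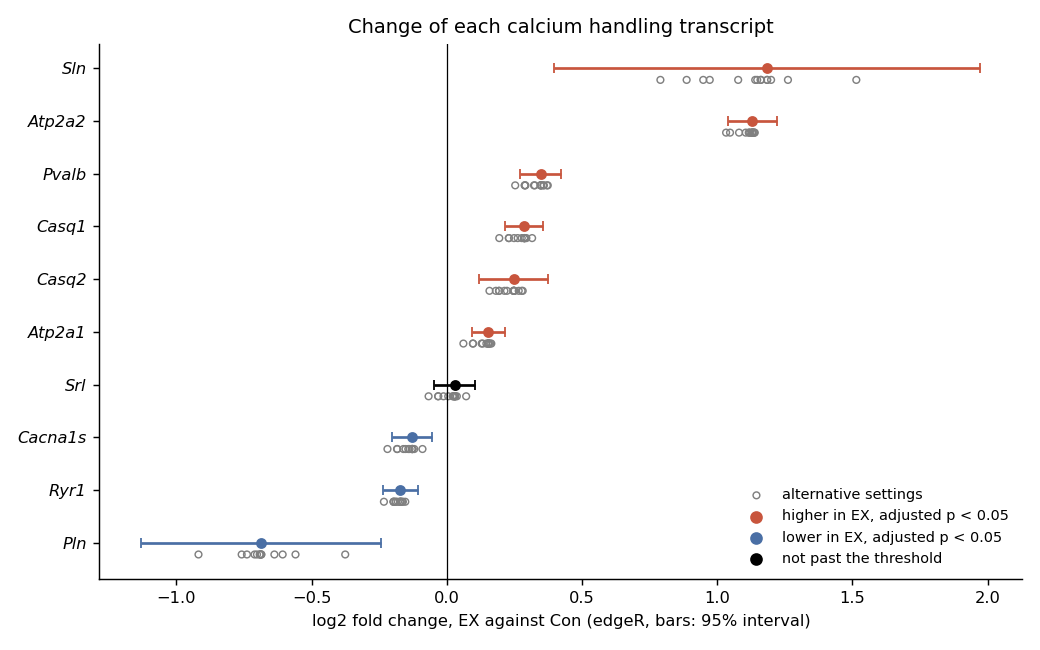
Log2 fold change of EX against Con for the 10 genes (filled points, red higher, blue lower, black not past the threshold) with 95% intervals from edgeR, and open circles for the 14 alternative settings. Atp2a2 and Sln lie above 1, Sln with a wide interval and open circles down to 0.79, Ryr1, Cacna1s and Pln lie below 0, and the interval of Srl spans 0.

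Transcript length was read from the ratio of counts to FPKM, which gives the length the authors' quantification divided by. For 8 of the 10 genes it overlapped between the groups, and it did not overlap for 7.7% of the 10873 tested genes with a length in every library. The length of Ryr1 was 14674, 14634 and 14589 bases in Con and 14320, 14350 and 14311 bases in EX libraries, so it fell by 2.09% (exact permutation p = 0.1, the smallest possible). That of Atp2a2 was 4077, 4071 and 4069 bases in Con and 4031, 4036 and 4040 bases in EX libraries, so it fell by 0.902% (exact permutation p = 0.1). A shorter length raises the TPM that the same counts give.

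The stretch upstream of the start of transcription was read from RefSeq promoters of GRCm38.p6, which matched 7 of the 10 genes in 8 windows. Atp2a2, Sln and Srl had no entry. The 200 bases up to the start are shown 5′ to 3′ on the gene's strand for the genes with a fast and a slow form, for Pvalb and for the release pair, since these carry the contrast described above. Capitals mark CAGCTG, the E-box form bound by myogenic factors, or the MEF2 consensus, found on either strand.
Atp2a1, chr7:126463074-126463273 on the minus strand: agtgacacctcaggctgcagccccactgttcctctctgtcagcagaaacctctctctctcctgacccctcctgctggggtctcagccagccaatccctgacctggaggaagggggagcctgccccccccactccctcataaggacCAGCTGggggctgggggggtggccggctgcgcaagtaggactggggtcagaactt
Casq1, chr1:172219896-172220095 on the minus strand: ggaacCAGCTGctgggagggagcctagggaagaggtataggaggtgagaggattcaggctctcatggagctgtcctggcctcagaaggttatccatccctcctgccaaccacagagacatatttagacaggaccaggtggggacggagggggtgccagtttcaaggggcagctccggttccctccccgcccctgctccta
Casq2, chr3:102086215-102086414 on the plus strand: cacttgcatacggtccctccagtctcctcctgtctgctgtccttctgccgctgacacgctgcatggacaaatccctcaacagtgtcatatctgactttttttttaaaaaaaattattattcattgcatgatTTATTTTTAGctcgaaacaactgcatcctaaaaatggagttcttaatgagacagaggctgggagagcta
Pvalb first start, chr15:78206401-78206600 on the minus strand: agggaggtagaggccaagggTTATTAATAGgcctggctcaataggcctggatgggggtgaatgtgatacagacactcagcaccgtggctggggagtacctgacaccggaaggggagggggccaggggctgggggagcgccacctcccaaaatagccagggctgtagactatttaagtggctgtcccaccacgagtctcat
Ryr1, chr7:29125152-29125351 on the minus strand: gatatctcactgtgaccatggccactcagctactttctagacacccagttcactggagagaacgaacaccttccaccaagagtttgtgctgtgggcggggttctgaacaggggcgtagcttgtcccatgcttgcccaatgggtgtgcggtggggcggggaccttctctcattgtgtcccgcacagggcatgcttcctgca
Cacna1s, chr1:136052611-136052810 on the plus strand: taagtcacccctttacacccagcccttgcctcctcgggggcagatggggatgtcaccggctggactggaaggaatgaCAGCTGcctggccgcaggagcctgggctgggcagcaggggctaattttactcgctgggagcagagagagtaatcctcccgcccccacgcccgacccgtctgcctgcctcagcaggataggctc

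In the 250 bases upstream, CAGCTG stood in Atp2a1 at -55, in Casq1 at -195 and in Cacna1s at -123, counted from the start of transcription. It was found in 13.0% of all 32851 promoters of the same length. The MEF2 consensus stood in Casq2 at -69 and at the first start of Pvalb at -180, and in 2.92% of all promoters. TATAAA was found in Pln at -219 and in 12.4% of all promoters. Ryr1 and the second start of Pvalb held none of the 4 motifs searched, the fourth being the CArG box, which 1.47% of promoters held. CAGCTG thus occurred in genes that rose (Atp2a1, Casq1) and in one that fell (Cacna1s), and a match describes letters and not binding.

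The 10 genes were also set among the other genes of muscle calcium handling. A wider list of 68 genes, the 10 included, had 58 tested. In EX muscle 25 rose and 6 fell (5 without Pln), or 53.4% against 17.9% of all genes, with a median log2 fold change of 0.11. Without the 10, 19 of 48 were higher and 3 lower, or 45.8%, with a median of 0.10. The median over all genes tested was -0.00 in edgeR, -0.056 with limma on log2(FPKM + 0.1) and -0.091 with limma on TPM. Within edgeR, median ratio size factors gave 25 higher and 6 lower, and totals without the top 20 genes gave 23 higher and 6 lower. Limma on FPKM, which changes the unit and the test at once, called 6 higher and 7 lower of the 58, or 22.4%, and limma on TPM called 5 higher and 7 lower, or 20.7%. In the same fits 13.3% and 18.6% of all genes passed, so the share on TPM was near that of all genes. Over all genes the split was 991 higher and 958 lower. It became 768 higher and 1269 lower when the top 20 genes were dropped from the totals, and limma called 411 higher and 1037 lower on log2(FPKM + 0.1) and 340 higher and 1684 lower on TPM. No gene of the 31 that passed changed sign under any of the 14 alternatives, but many calls were lost under some of them: Stim2 passed in 5, S100a1, Cav3 and Micu2 in 7, Tmem38b in 8 and Itpr1 in 9 of the 14.

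Among partners of the release channel, 7 of 10 tested rose and none fell, against 9.11% higher and 8.8% lower over all genes, while Ryr1 itself fell. Calmodulin binds Ryr1, and transcripts of Calm2 and Calm3, which encode it, rose. Calm2 went from 182.6 ± 7.45 to 228.9 ± 7.57 CPM (log2 fold change 0.33, edgeR adjusted p = 9.4e-07) and Calm3 had a log2 fold change of 0.22. Triadin (Trdn), which ties calsequestrin to the channel, had a log2 fold change of 0.15, Jsrp1 0.18 and the channel stabiliser Fkbp1a 0.20, each past the threshold in 11 of the 14 alternatives. The inositol trisphosphate receptor Itpr1, another release channel, had 0.18. Asph at 0.08, Itpr2 at -0.19 and Itpr3 at -0.23 did not pass.

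Of 5 partners of the voltage sensor tested, 2 passed, against 17.9% of all genes. The subunit Cacng1 and the adaptor Stac3, needed for coupling to Ryr1, each had a log2 fold change of 0.15, past the threshold in 10 and 11 of the 14 alternatives. The difference from Cacna1s at -0.13 was not tested. Cacng6 (0.01), Cacnb1 (0.02) and Cacna2d1 (0.08) did not pass.

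Of the genes that build the junction between tubule and store, 5 of 10 rose and none fell, against 9.11% higher and 8.8% lower over all genes. Bin1, which shapes the tubule membrane, went from 762.2 ± 15.7 to 926.9 ± 29.9 CPM (log2 fold change 0.28, edgeR adjusted p = 7.5e-07) and held under all 14 alternatives. Sypl2 (0.19), Cav3 (0.17), Tmem38b (0.17) and Jph2 (0.17), the junctophilin that bridges the membranes, also passed, Sypl2 and Jph2 in 11 of the 14 alternatives. Tmem38a (0.07), Jph1 (0.10) and Speg (-0.04), the other 3 with the highest levels, did not.

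Of other store proteins, calreticulin (Calr, 0.20) and S100a1 (0.17), which binds the channel and the pump, rose, while Hrc (0.09) and Calu (-0.00) did not pass. Of store-operated entry, Stim2 (0.16) passed and the store sensor Stim1 (0.00), the pore gene Orai1 (0.11) and Orai3 (0.12) did not.

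Of extrusion at the cell membrane, 1 of 5 tested rose and 2 fell, against 9.11% and 8.8% of all genes. The sodium-calcium exchanger Slc8a1 fell from 46.5 ± 1.68 to 36.9 ± 0.726 CPM (log2 fold change -0.33, edgeR adjusted p = 3.9e-05) under all 14 alternatives, and Slc8a3 had -0.14 (adjusted p = 0.027, past the threshold in 10 of 14 alternatives). The membrane pump Atp2b3 rose (0.27, adjusted p = 5.8e-03, past the threshold in 10 of 14), and Atp2b1 (-0.07) and Atp2b4 (-0.04) did not pass. Of mitochondrial uptake, the gatekeeper Micu2 passed (0.23) and the other 6 did not, among them Smdt1 (0.11) and Letm1 (-0.02). That is 14.3% of the group, no more than the 17.9% of all genes.

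**Figure D4:**
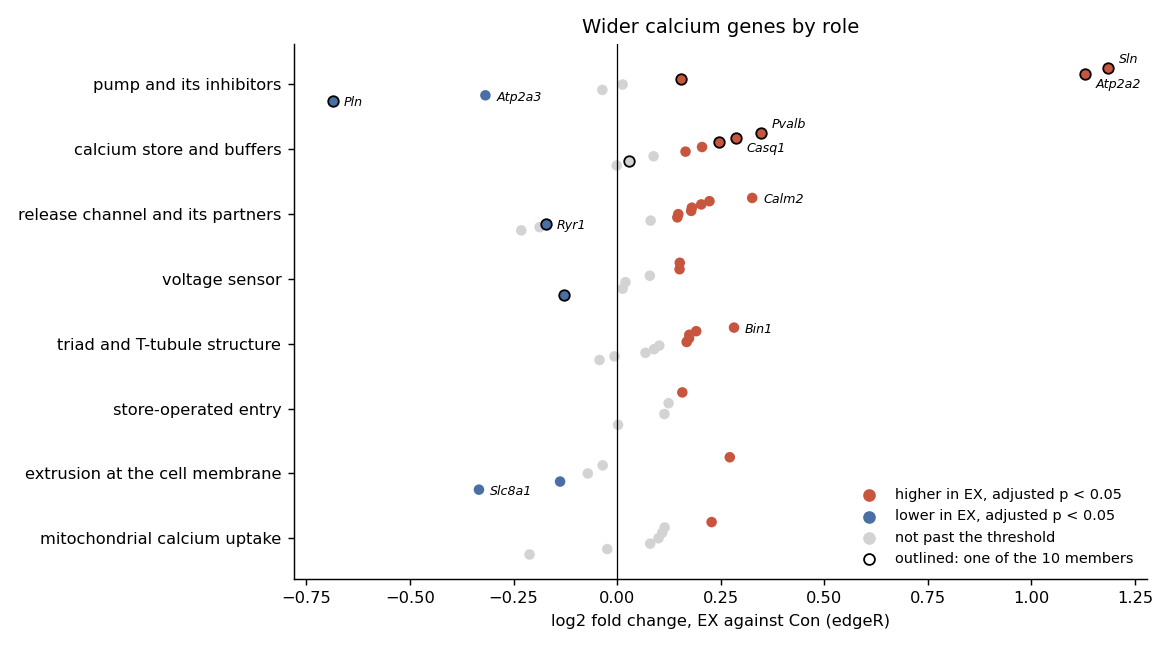
Log2 fold change of EX against Con (edgeR) for the 58 wider calcium genes tested, by role, red where higher and blue where lower past the threshold, grey where not, with the 10 genes outlined. Most coloured points of the release channel, voltage sensor and junction groups are red while Ryr1 and Cacna1s are blue, and limma on FPKM or TPM calls 12 or 13 of these genes in place of 31.

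Markers of other cell types were read in the same samples, where 9.11% of all genes rose and 8.8% fell. Macrophage markers rose for 5 of 6 tested (summed level 60.9 to 63.9 TPM in Con, 106.8 to 115.2 TPM in EX libraries) and Schwann cell markers fell for 4 of 5 (91.4 to 100.9 TPM in Con, 66.4 to 69.4 TPM in EX libraries). Adipocyte markers rose for 3 of 4 (899.2 to 1008 TPM in Con, 835.6 to 873.9 TPM in EX libraries, mostly Fabp4, which did not pass), and smooth muscle markers split 1 higher and 1 lower of 7 (1512 to 1635 TPM in Con, 1465 to 1543 TPM in EX libraries). The part of these cell types in the changes of the wider list was not tested.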

How the data were processed

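RNA of hind leg muscle was sequenced as 3 Con and 3 EX libraries, with paired reads of 150 bases on the DNBseq platform. The authors deposited 1 table with an estimated count, an FPKM and a TPM value per gene and library. The estimated counts are not normalized, whereas FPKM and TPM were scaled by the authors for library total and transcript length. The paper names HISAT, GRCm39 and DESeq, while the submitters' processing notes name GRCm38.p6, cutadapt, featureCounts and MultiQC, so the build of the counts is not settled here, and the table gives no positions. Its 6 columns of group means were not used. Of the estimated counts, 4.18% to 4.44% per library were not whole (none of the 10 genes), and all were rounded.

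Counts were scaled by TMM and tested with edgeR 4.0.16 (glmQLFit and glmQLFTest, R 4.3.3) for genes whose mean FPKM was 1 or more, with a threshold of adjusted p under 0.05. Ratios within a library were compared by two-sided exact permutation tests, whose smallest p is 0.1. Poisson intervals of counts were computed with scipy 1.17.1. Alternatives were median ratio size factors, totals without the 20 most abundant genes, no filter, DESeq2 1.42.0, limma 3.58.1 on log2(FPKM + 0.1), log2(FPKM + 1) and log2(TPM + 0.1), a replicate block, and each library left out in turn. Fold changes on a log2 scale with a pseudocount understate the change of low genes. Libraries of a group differed beyond sampling noise (chi-square per degree of freedom of 1.78 to 4.18), so none was counted as a copy of another. This check cannot show that each came from a separate mouse.

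The 10 genes, the wider lists and the marker lists were chosen with earlier results of these data known. The text names all 10 genes and, from the wider lists, the genes past the threshold and up to 3 others per list with the highest TPM. Some genes of these lists are withheld for evaluations and are not reported here by name, although they are in the counts. A few others (Strit1, Ryr2, Ryr3, Itpr2, Itpr3, Orai3, and marker genes) were named after their values were seen. Promoters came from RefSeq (GRCm38.p6).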

Additional observations from a re-analysis of the deposited data

How the results depend on the processing

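With DESeq2, 1228 genes passed in place of 1949, and Pln (-0.69, adjusted p = 0.147) and Sln (1.20, adjusted p = 0.148) did not. Of the wider calcium genes, 13 passed with limma on log2(FPKM + 0.1), 13 on log2(FPKM + 1) and 12 on log2(TPM + 0.1), in place of 31, or 22.4%, 22.4% and 20.7% of the 58 where 13.3%, 13.3% and 18.6% of all genes passed. With limma in that order, the values that missed the threshold were 0.10, 0.10 and 0.061 for Atp2a1 (adjusted p of 0.114, 0.113 and 0.234), 0.19, 0.18 and 0.16 for Casq2 (0.083, 0.082 and 0.117) and 0.97, 0.79 and 0.95 for Sln (0.078, 0.077 and 0.069), and Srl turned to -0.032, -0.032 and -0.067, with no call in either direction. In the same limma fits the median over all genes was -0.056, -0.049 and -0.091. Over the 14 alternatives 6 to 9 of the 10 genes passed.

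Leaving out 1 library at a time gave -0.92 to -0.56 for Pln, 0.89 to 1.51 for Sln, -0.16 to -0.090 for Cacna1s, and -0.012 (without Con replicate 3) to 0.072 for Srl. The calsequestrin ratio ranged from -0.12 to 0.022, above 0 without Con replicate 3, and 1344 (without EX replicate 3) to 1857 genes passed. Where a group was left with 2 libraries the fit still pooled the spread over both groups.

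Replicate numbers are in the labels of both groups, but same-numbered libraries did not deviate together (correlations of -0.08, -0.05 and -0.07), so they share only a number. A fit with the replicate number as a block called 1782 genes, of which 1766 were among the 1949, and gave the 10 genes the same calls, with 9 passing (Pln included) and 31 of the wider genes.

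Depth limits Sln, Pln and Strit1, whose counts were at most 40 per library. With 3 libraries a group, the exact tests of ratios could not go below p = 0.1.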
